A study of Mus musculus with 25 samples.

Results

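The genes of the Polycomb repressive complexes were followed in sorted mouse retina: Ezh1, Ezh2, Eed, Suz12 and Jarid2 of Polycomb repressive complex 2 (PRC2), and Bmi1, Ring1, Rnf2, Cbx2 and Cbx7 of Polycomb repressive complex 1 (PRC1). They were taken by name, whatever their values. They are 10 of the 28446 genes in the RNA table and 10 of the 23284 genes with ATAC-seq counts over exons. Their starts make up 11 of the 28329 regions around transcript starts, because Jarid2 has an upstream and a downstream start.

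Retina of CD1 mice was sorted by green fluorescent protein (GFP). The labels call GFP+ cells retinal progenitor cells and GFP- cells post-mitotic retinal cells, and they name neither the reporter that carries GFP nor its promoter. Both sorts were sequenced for RNA at embryonic days 14 and 18 (E14, E18) and at postnatal day 2 (P2), with 2 libraries a group and 12 altogether. ATAC-seq, which counts transposase insertions into open chromatin, was done in GFP+ cells alone: 1 library came from E10 (labelled as day 10 or 11), and pairs of libraries came from E12.5, from E14, from E16.5, from E18, from P0 and from P2, 13 in all. All groups share the strain and carry no further allele or treatment in the labels. The labels do not say whether the 2 replicates of a group came from separate animals or pools, so each p-value measures only the spread between these libraries. In sorted bulk samples, fewer cells of a type and less RNA per cell cannot be told apart.

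Polycomb proteins keep genes silent through histone marks. PRC2 places methyl groups on histone H3 through its catalytic subunit, EZH2 or the related EZH1, held together by EED and SUZ12. PRC1 binds that mark through CBX proteins and adds ubiquitin to histone H2A through RING1 or RNF2 (also called RING1B), which work with a PCGF protein such as BMI1. In the developing retina the complexes are known for their part in keeping progenitors dividing and in the order in which neurons are made.

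The library labelled E14 GFP- replicate 2 went against its label. Summed over 12 pan-neuronal markers it held 117 FPKM, against 7378 FPKM in E14 GFP- replicate 1, 126 to 362 FPKM in the 6 GFP+ libraries and 883 to 2011 FPKM in the GFP- libraries of E18 and P2. Summed over 11 progenitor markers it held 2317 FPKM, against 500.2 FPKM in replicate 1, 1032 to 1469 FPKM in the GFP- libraries of E18 and P2, and 1996 to 3748 FPKM in all GFP+ libraries. It also held 195 FPKM of pigment epithelium markers (7 genes) against at most 7.56 FPKM elsewhere, and 147 FPKM of astrocyte and mesenchyme markers (8 genes) against at most 13.02 FPKM. Lens markers (9 genes) reached 4793 FPKM in it and 125 FPKM in E14 GFP+ replicate 2, against at most 4.50 FPKM in the other 10 libraries. Erythroid markers (6 genes) reached 2489 FPKM in E14 GFP- replicate 1, against at most 191 FPKM in the other 11. Cell cycle RNA was present in GFP- libraries too. Summed over 15 G2/M genes, E14 GFP- replicate 1 held 44.6 FPKM and the other GFP- libraries 424 to 714 FPKM. GFP+ libraries held 1193 to 2019 FPKM. Over 15 S phase genes these sums were 157 FPKM, 352 to 972 FPKM and 806 to 1661 FPKM in the same order. The E18 libraries also stood apart, with 2.61% to 9.57% of their FPKM in replication-dependent histone genes, against at most 0.0572% in the other 8, and with Malat1 at 1706 FPKM or more against at most 134.9 FPKM. In ATAC-seq the depth lay between 1474790 and 15915391 counts over exons, and between 11176227 and 94662422 counts in the start regions. The part of these library differences in the results below was not tested, and results that rest on the E14 libraries are given with and without them.

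Levels were read as FPKM, fragments scaled to transcript length and library depth, which are per length and can be set side by side between genes. Ezh2 stood highest, with a mean over the 12 libraries of 108.0 FPKM (percentile 95.8 of the 14276 genes tested). Suz12 (54.7 FPKM), Bmi1 (50.6 FPKM) and Rnf2 (49.8 FPKM) followed, and lay closer to each other than the spread of any of the 3 over libraries. Eed (31.5 FPKM), Cbx2 (28.98 FPKM) and Jarid2 (20.9 FPKM) came next. Ring1 (11.0 FPKM) and Ezh1 (10.9 FPKM) could not be ordered, and Cbx7 was lowest at 2.37 FPKM (percentile 18.1). Between its lowest and highest library Rnf2 varied least, by 1.496 times, and Cbx2 most, by 5.23 times.

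**Figure D1:**
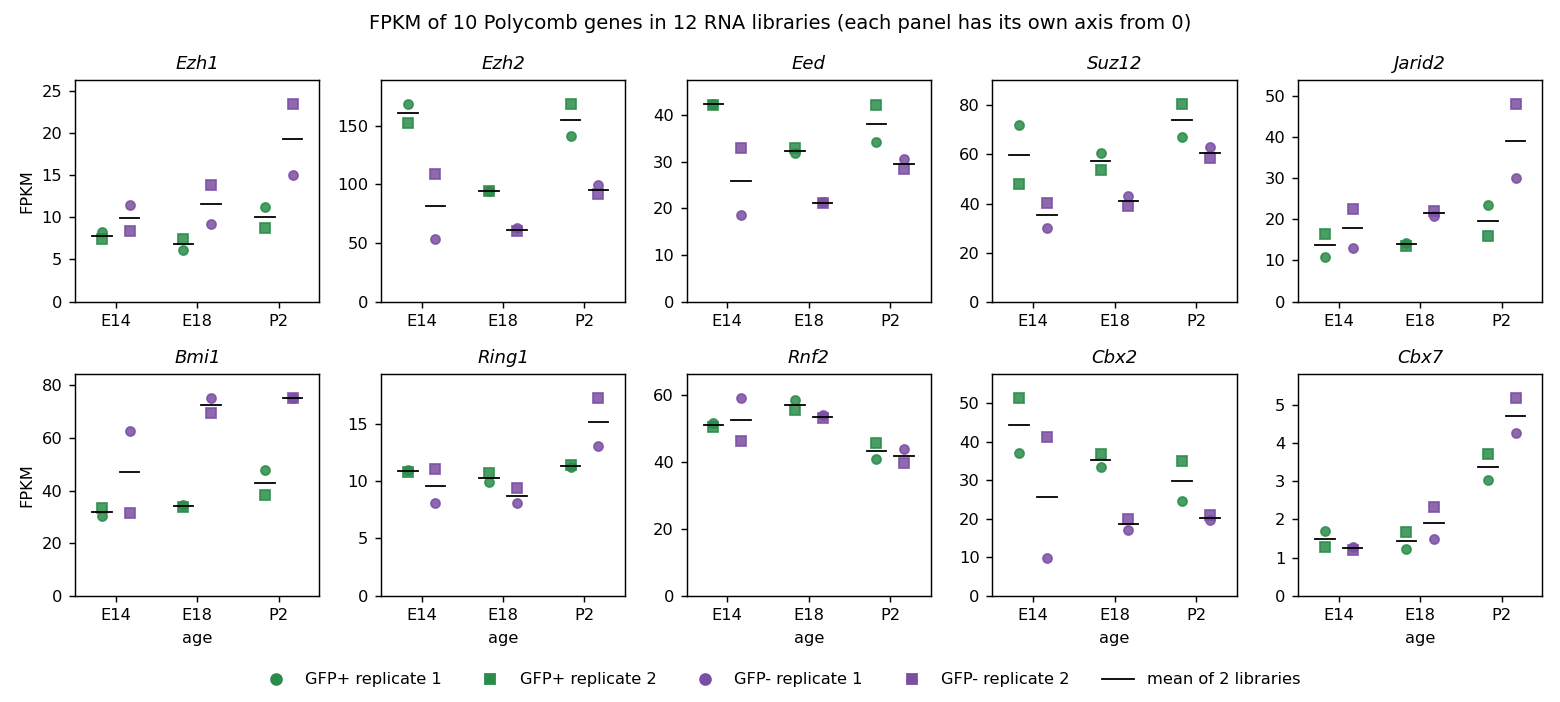
FPKM of each of the 10 genes (vertical axis, from 0, own scale in each panel) at 3 ages in GFP+ (green) and GFP- (purple) libraries, with replicates as circles and squares and group means as bars (n = 2). Ezh2, Eed and Suz12 lie higher in GFP+ cells and Ezh1 lies lower, without overlap, at each age.

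The members were compared between cells labelled progenitors and cells labelled post-mitotic, averaged over the 3 ages. Of the 10, 6 passed the test, 3 higher and 3 lower in GFP+ cells, beside 33.1% of all genes tested (15.5% higher and 17.6% lower; limma, adjusted p below 0.05). Within PRC2 the core subunits Ezh2, Eed and Suz12 were higher in GFP+ cells, while Ezh1 and the accessory subunit Jarid2 were lower. The catalytic subunit Ezh2 read 169 and 152 FPKM in GFP+ cells at E14, 94.6 and 94.3 FPKM at E18, and 141 and 169 FPKM at P2. In GFP- cells it read 53.6 and 109 FPKM at E14, 62.8 and 59.8 FPKM at E18, and 99.4 and 91.7 FPKM at P2. The sorts did not overlap at any age, and the mean of the 3 sort differences was 0.79 ± 0.16 (log2 of FPKM + 1, SE; limma over all genes, adjusted p = 0.0140).

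Eed, which reads the methyl mark and stimulates the enzyme, read 42.4 and 42.1 FPKM in E14 GFP+ cells against 18.6 and 32.9 FPKM in GFP- cells. At E18 it read 31.8 and 32.8 FPKM against 21.2 and 21.1 FPKM, and at P2 34.1 and 42.2 FPKM against 30.5 and 28.4 FPKM. It was higher in GFP+ cells in every pairing of libraries within an age, by 0.56 ± 0.14 (adjusted p = 0.0205, limma). Suz12, the scaffold of the complex, read 71.8 and 47.997 FPKM in E14 GFP+ cells against 30.1 and 40.4 FPKM in GFP- cells. Its E18 values were 60.7 and 53.7 FPKM against 43.0 and 39.1 FPKM, and its P2 values 67.3 and 80.8 FPKM against 62.9 and 58.5 FPKM. The groups did not overlap, and the difference was 0.49 ± 0.13 (adjusted p = 0.0240, limma).

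Ezh1, the catalytic subunit known from non-dividing cells, ran the other way. It read 8.21 and 7.37 FPKM in E14 GFP+ cells against 11.5 and 8.37 FPKM in GFP- cells, 6.07 and 7.47 against 9.19 and 13.9 FPKM at E18, and 11.2 and 8.77 against 15.0 and 23.5 FPKM at P2. Every GFP- library lay above both GFP+ libraries of its age, and the difference was -0.61 ± 0.17 (adjusted p = 0.0289, limma). Jarid2, a cofactor that helps to bring PRC2 to its targets, overlapped between the sorts at E14 (10.9 and 16.4 FPKM in GFP+, 13.2 and 22.6 FPKM in GFP-). It did not overlap at E18 (14.3 and 13.6 against 20.8 and 22.1 FPKM) or at P2 (23.5 and 16.0 against 30.0 and 48.2 FPKM), and its difference was -0.62 ± 0.19 (adjusted p = 0.0387, limma).

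The promoters of these genes are shown because Ezh2, Suz12 and Eed were higher and Ezh1 was lower in the same sort. The sequences are RefSeq's on GRCm38.p6, from 250 bases before to 50 bases from the start, and 9 of the 10 genes had an entry. Capitals mark E2F sites (searched as TTTGGCGC, TTTCCCGC, TTTCGCGC or TTTGCCGC on both strands, held by 2.265% of 32851 promoters of that length) and CCAAT boxes (CCAAT on both strands, 37.4% of promoters). Ezh2 lies at chr6:47594981-47595280 (minus strand), Suz12 at chr11:79992856-79993155 (plus), Eed at chr7:89980927-89981226 (minus) and Ezh1 at chr11:101226414-101226713 (minus).
Ezh2: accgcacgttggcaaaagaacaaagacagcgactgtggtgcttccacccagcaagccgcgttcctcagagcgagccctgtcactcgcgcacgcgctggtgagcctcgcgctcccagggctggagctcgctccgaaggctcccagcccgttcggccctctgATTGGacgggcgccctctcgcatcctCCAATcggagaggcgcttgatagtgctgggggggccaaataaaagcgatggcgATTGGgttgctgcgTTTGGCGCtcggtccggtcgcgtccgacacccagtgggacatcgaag
Suz12: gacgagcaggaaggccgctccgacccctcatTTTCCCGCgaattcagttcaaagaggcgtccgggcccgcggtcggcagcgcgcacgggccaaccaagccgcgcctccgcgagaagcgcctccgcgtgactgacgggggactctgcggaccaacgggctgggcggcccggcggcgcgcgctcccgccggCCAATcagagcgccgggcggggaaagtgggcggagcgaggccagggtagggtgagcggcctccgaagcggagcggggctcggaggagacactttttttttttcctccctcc
Eed: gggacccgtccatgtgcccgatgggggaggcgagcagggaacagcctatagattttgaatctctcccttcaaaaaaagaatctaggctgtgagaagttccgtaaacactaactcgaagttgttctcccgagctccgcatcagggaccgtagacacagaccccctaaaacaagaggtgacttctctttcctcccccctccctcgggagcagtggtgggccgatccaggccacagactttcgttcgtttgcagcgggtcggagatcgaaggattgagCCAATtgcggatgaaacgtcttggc
Ezh1: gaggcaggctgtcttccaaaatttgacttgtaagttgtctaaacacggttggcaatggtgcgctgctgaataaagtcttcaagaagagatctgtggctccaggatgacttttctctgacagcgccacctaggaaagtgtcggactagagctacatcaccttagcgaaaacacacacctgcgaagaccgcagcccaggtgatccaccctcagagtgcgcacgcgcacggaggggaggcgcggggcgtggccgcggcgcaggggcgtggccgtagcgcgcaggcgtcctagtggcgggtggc
An E2F site, the motif of the factors that drive S phase genes, was matched in Ezh2, where TTTGGCGC begins 3 bases after the start, and in Suz12, where TTTCCCGC begins 219 bases before it. No E2F site matched in the windows of the other 7 members with an entry. Ezh2 also held 3 CCAAT boxes, Suz12 and Eed held 1 each and Ezh1 held 0. CpG counts ran from 17 in Eed to 41 in Suz12, with 31 in Ezh2 and 23 in Ezh1, against a median of 7 over all promoters. A match is a string of letters and not a bound site.

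Within PRC1, Bmi1 was lower in GFP+ cells, and the ring finger genes showed no difference that passed the test. Bmi1, the PCGF subunit of canonical PRC1, read 30.2 and 33.3 FPKM in E14 GFP+ cells against 62.5 and 31.3 FPKM in GFP- cells. At E18 it read 34.5 and 33.6 against 75.3 and 69.5 FPKM, and at P2 47.7 and 38.3 against 75.3 and 75.4 FPKM. The sorts lay apart at E18 and P2 and overlapped at E14, where the library labelled E14 GFP- replicate 2 fell between both GFP+ libraries, and the difference was -0.78 ± 0.16 (adjusted p = 0.0138, limma). Cbx2, a reader of the mark that compacts chromatin, read 37.1 and 51.5 against 9.84 and 41.3 FPKM at E14, 33.5 and 36.9 against 17.2 and 19.9 FPKM at E18, and 24.7 and 35.1 against 19.6 and 21.0 FPKM at P2. Its difference was the largest of the 10 in size, 0.82 ± 0.30, and missed the threshold (adjusted p = 0.0659, limma), with overlap at E14 alone. With the replicate number as a block Cbx2 passed (adjusted p = 0.0431, limma, 32.7% of genes called). It was not called with a pseudocount of 0.1 (32.1% of genes), without the filter on low values (18.6%) or with quantile scaling (35.3%). Nor was it called after rescaling without histone, mitochondrial and Malat1 values (34%).

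Rnf2, the ubiquitin ligase of most PRC1, read 39.5 to 59.1 FPKM over all 12 libraries, and its sort difference was 0.03 ± 0.08 (adjusted p = 0.771, limma). Ring1, its paralog, read 8.04 to 17.3 FPKM, with a difference of 0.01 ± 0.12 (adjusted p = 0.963, limma). Averaged over ages it stood near 0, with GFP+ higher at E18 (9.88 and 10.7 against 8.04 and 9.35 FPKM) and lower at P2 (11.2 and 11.4 against 13.01 and 17.3 FPKM), both without overlap. The change of its sort difference from E18 to P2 was -0.60 ± 0.29 (adjusted p = 0.9996, limma) and did not pass the test. Cbx7, a reader known from stem cells and adult tissue, read 1.19 to 5.20 FPKM, with a sort difference of -0.16 ± 0.13 (adjusted p = 0.366, limma).

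The median of the 10 sort differences over ages was 0.02, against -0.0044 over all genes. Libraries of the sorts did not overlap at all 3 ages for 4 members, 3 higher (12% of all genes) and Ezh1 lower (9.53%). At single ages limma called 0 members at E14, where it called 0 genes and where 3 members and 15.7% of genes (2246) had an unadjusted p below 0.05. It also called 0 members at E18 (3.61% of genes called), where 3 members and 29.7% of genes were below 0.05 unadjusted. At P2 it called 0 members as well (1.49% of genes called), with 4 members and 15.7% of genes below 0.05 unadjusted.

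These calls moved with the E14 libraries. Without E14 GFP- replicate 2, 48.5% of genes were called at E14 and 5 members with them: Ezh2 (1.56), Eed (1.14), Suz12 (0.94) and Cbx2 (2.04) higher and Bmi1 (-0.96) lower. Without E14 GFP- replicate 1 instead, Bmi1 stood at 0.01 at E14 and no member was called there (0.903% of genes). Without the 4 E14 libraries, the same 5 members were called at E18 (51.1% of genes), Bmi1 at -1.06 and Cbx2 at 0.89. At P2 (34% of genes) Ezh2 (0.69) and Cbx2 (0.52) were called higher and Ezh1 (-0.86), Jarid2 (-0.94) and Bmi1 (-0.80) lower. Averaged over E18 and P2, 7 members were called beside 58.4% of genes, the 6 above and Cbx2 at 0.70. Over the 3 ages, leaving out E14 GFP- replicate 1 gave 7 members (42.7% of genes called) and replicate 2 also 7 (62.4%). Without P2 GFP- replicate 1 it was 6 members (20.1%), without E14 GFP+ replicate 2 5 (24.8%), without P2 GFP+ replicate 1 4 (16.9%) and without E18 GFP- replicate 1 3 (12.3%). Without any other library it was 2, with 9.17% to 15.8% of genes called. Ezh2 and Bmi1 were called in each of these 12 fits. Without the filter on low values Jarid2 missed the threshold (adjusted p = 0.0574, limma; 18.6% of genes called), and after rescaling without histone, mitochondrial and Malat1 values Suz12 did (adjusted p = 0.0598, limma; 34% of genes).

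**Figure D2:**
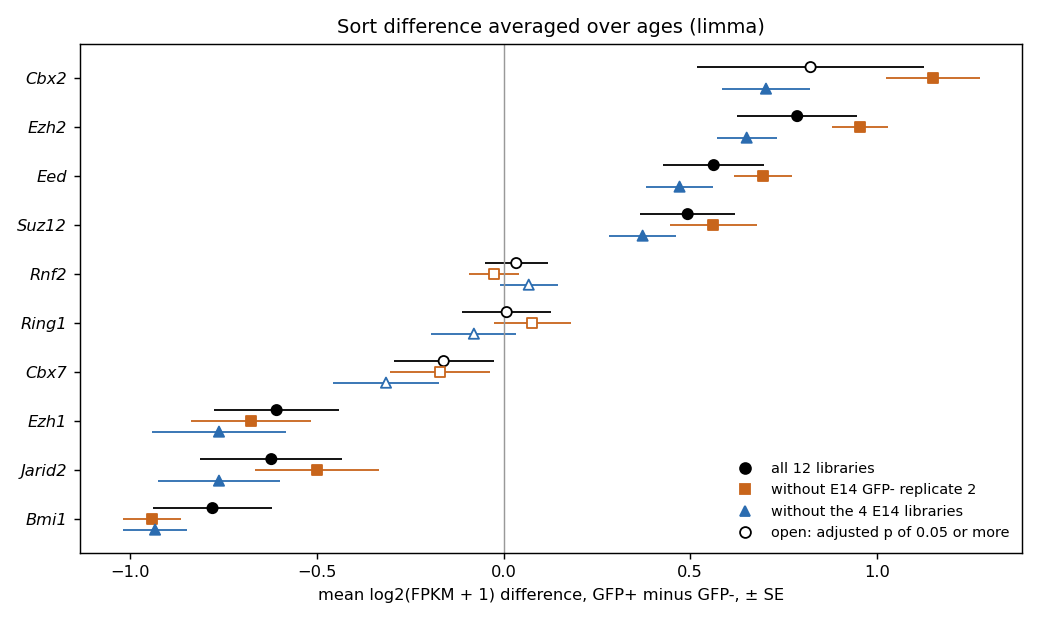
Mean of the sort differences over ages for each member (horizontal axis, log2 of FPKM + 1, GFP+ minus GFP-, bars are SE), from all 12 libraries (circles), without E14 GFP- replicate 2 (squares) and without the 4 E14 libraries (triangles, mean of E18 and P2). Filled symbols passed an adjusted p of 0.05 (limma). Cbx2 passes in both reduced sets, and Rnf2, Ring1 and Cbx7 pass in none.

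Paralogs that fill the same place in a complex were compared as a ratio in each library. The ratio of Ezh2 to Ezh1 in FPKM was 20.6 and 20.7 in GFP+ cells at E14, 15.6 and 12.6 at E18, and 12.5 and 19.3 at P2. In GFP- cells it was 4.68 and 13.03 at E14, 6.83 and 4.32 at E18, and 6.61 and 3.91 at P2. GFP+ libraries lay above GFP- libraries at every age, by 1.39 on the scale of log2 of FPKM + 1 (2-sided exact permutation test of sort within age, n = 2 per group, p = 0.00926, the smallest that 216 arrangements can give; adjusted over 3 ratios p = 0.0278). Ezh1 thus made up 4.61% to 7.39% of the FPKM of both genes in GFP+ cells and 7.13% to 20.4% in GFP- cells. At each age Ezh2 lay higher and Ezh1 lower in GFP+ cells without overlap. The permutation p of their ratio therefore had to be the smallest possible, and it adds no support to those values.

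The ratio of Cbx2 to Cbx7 was higher in GFP+ cells by 0.98 on the log2 scale (exact permutation test, p = 0.0185, adjusted over 3 ratios p = 0.0278). This difference combines those of Cbx2 (0.82) and Cbx7 (-0.16) given above, neither of which passed in limma. It rests on the same values and is not a separate observation. The highest value of the ratio was 40.4 in E14 GFP+ replicate 2 and its lowest 4.04 in P2 GFP- replicate 2. The sorts overlapped at E14, where GFP- replicates read 7.66 and 34.6 against 21.7 and 40.4 in GFP+ cells. They lay apart at E18 (27.6 and 22.1 against 11.6 and 8.51) and at P2 (8.14 and 9.43 against 4.62 and 4.04). The ratio of Rnf2 to Ring1 lay between 2.29 and 7.35, with no difference between the sorts that passed (0.03 on the log2 scale, exact permutation p = 0.852). Without the 4 E14 libraries the first 2 ratios differed by 1.41 and 1.02, and 0.0556 is then the smallest exact p that the arrangements allow. Leaving out either E14 GFP+ library moved the exact adjusted p of the Ezh2 to Ezh1 ratio to 0.0556. For Cbx2 to Cbx7 it moved to between 0.0556 and 0.139 without either of them or E14 GFP- replicate 1, and without the last its difference was 0.65.

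**Figure D3:**
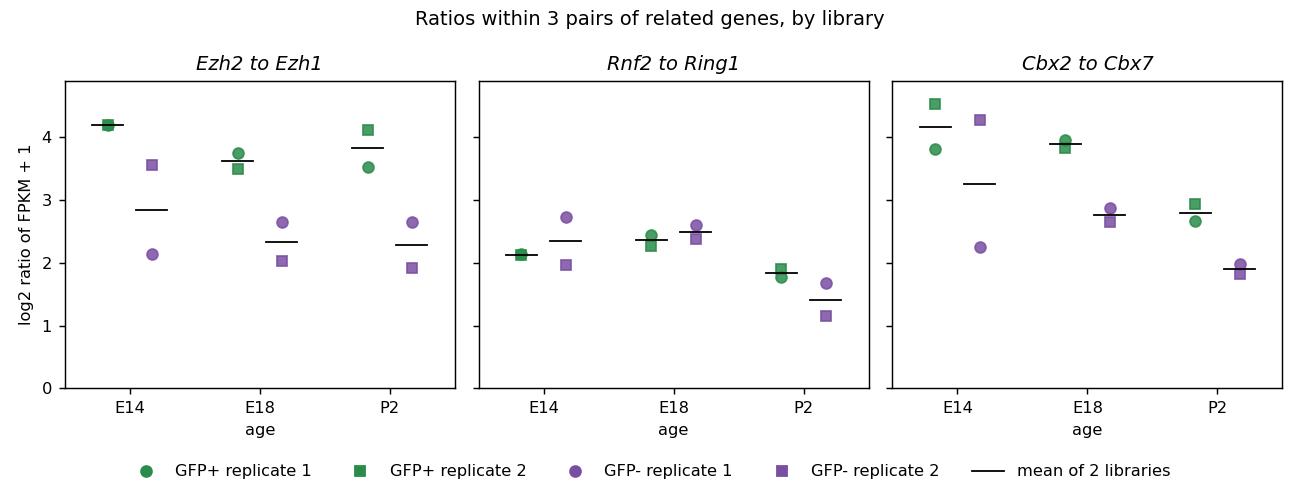
Log2 ratio of FPKM + 1 within 3 pairs of related genes (vertical axis, from 0) by age, for GFP+ (green) and GFP- (purple) libraries, with group means as bars (n = 2). The Ezh2 to Ezh1 ratio lies higher in GFP+ cells at each age, and the Cbx2 to Cbx7 ratio lies higher in GFP+ cells at E18 and P2.

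How the members change with age was asked between E18 and P2 in each sort. Cbx7 was the member with the largest rise. It read 1.21 and 1.67 FPKM in E18 GFP+ cells and 3.04 and 3.72 FPKM at P2, a log2 difference of 0.84 ± 0.23 that missed the threshold (adjusted p = 0.0646, limma; 0 of 10 members called, 3 at an unadjusted p below 0.05 beside 22.6% of genes, 7.98% of genes called). In GFP- cells it rose from 1.49 and 2.33 FPKM to 4.26 and 5.20 FPKM, by 0.99 ± 0.23 (adjusted p = 0.0315, limma), the 1 member called beside 11.1% of genes (5.9% higher). The call was lost with a pseudocount of 0.1 (1.29, adjusted p = 0.0550, limma), without the filter on low values (0.99, adjusted p = 0.0549) and on leaving out any 1 of the 4 libraries, where the difference was 0.78 to 1.198 (adjusted p = 0.0692 to 0.233, limma). Markers of cell types moved in GFP- cells over the same ages: of 11 photoreceptor genes 5 were called higher and 0 lower (median 1.27), and of 9 ganglion cell genes 2 were called lower and 0 higher (median -3.88). Their part in the change of Cbx7 was not tested. From E14 to P2 in GFP+ cells Cbx7 stood at 0.81 ± 0.23 (adjusted p = 0.152, limma; 0 members called, 1 at an unadjusted p below 0.05 beside 14% of genes, 1.15% of genes called).

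Libraries of E18 and P2 did not overlap in either sort for 9 members. Ezh1, Ezh2, Eed, Suz12, Jarid2, Bmi1, Ring1 and Cbx7 were higher at P2 (24.6% of all genes) and Rnf2 was lower (27.4%), while Cbx2 overlapped. Bmi1 in GFP- cells barely parted, at 75.3 and 69.5 against 75.3 and 75.4 FPKM. Without the E14 libraries limma called 7 members from E18 to P2 in GFP- cells (42.9% of genes): Cbx7, Jarid2 (0.80), Ring1 (0.73), Ezh2 (0.63), Suz12 (0.55) and Eed (0.46) higher and Rnf2 (-0.35) lower. In GFP+ cells it then called 3 (35.5% of genes), Cbx7 and Ezh2 (0.70) higher and Rnf2 (-0.39) lower. The test of whether a change with age differed between the sorts called 0 members (limma, 14 genes called, 0.0981%). In it 0 members had an unadjusted p below 0.05, beside 3.24% of genes. The E18 libraries are those with the high histone share and Malat1 given above, and the part of this in the rise at P2 was not tested.

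The remaining genes of the pathway were called in both directions, at shares to be read against the 33.1% of all genes called. Of 7 other PRC2 genes tested, 3 were higher and 2 lower in GFP+ cells over the ages (median 0.51). Rbbp7 (0.85 ± 0.15) and Rbbp4 (0.51 ± 0.12), histone chaperones that are part of the PRC2 core, and Phf19 (0.97 ± 0.19) were higher. Phf1, like Phf19 an accessory subunit that binds a histone mark of active genes, was lower at -0.83 ± 0.20 (adjusted p = 0.0194, limma). Phf1 read 2.02 to 9.38 FPKM in GFP+ cells and 5.24 to 17.7 FPKM in GFP- cells.

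Of 23 other PRC1 genes, 4 were higher and 4 lower (median -0.18), a share near that of all genes. Pcgf2, the closest paralog of Bmi1, was lower with it in GFP+ cells (-0.70 ± 0.13, adjusted p = 0.0118, limma), as was Auts2 (-1.45 ± 0.36). Pcgf5, a PCGF protein of variant PRC1, was higher (1.28 ± 0.33), and so was Scml2 (0.66 ± 0.15). Pcgf2 also rose from E18 to P2, by 2.43 ± 0.23 in GFP+ cells (adjusted p = 4.53e-04, limma) and by 2.23 ± 0.23 in GFP- cells, from 4.58 to 9.82 FPKM at E18 to 29.2 to 52.0 FPKM at P2. Its E14 values were 32.4 to 59.999 FPKM, so that it was low in the E18 libraries alone.

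Of 17 genes that oppose Polycomb (demethylases, deubiquitinases and trithorax genes), 4 were higher and 3 lower in GFP+ cells (median 0.02). Asxl3, a partner of the deubiquitinase BAP1, was lowest at -1.18 ± 0.25 (adjusted p = 0.0145, limma), and Wdr5, a subunit of methyltransferases of active genes, was higher at 0.58 ± 0.15. Kdm6b, which removes the PRC2 mark, read 0.95 to 3.03 FPKM in the E18 libraries and 17.5 to 61.0 FPKM in the other 8. Of 20 textbook Polycomb targets, 2 reached 1 FPKM in 2 libraries, and the 20 together summed to 0.142 to 6.24 FPKM in a library. These were Pax7, lower in GFP+ cells (-0.53 ± 0.17, adjusted p = 0.0483, limma) with 1.51 and 2.96 FPKM in P2 GFP- cells, and Cdkn2a, at -0.02 ± 0.27.

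Cell cycle genes moved with the sort beside the members. Of 15 G2/M genes 15 were higher in GFP+ cells over the ages (median 2.03) and of 15 S phase genes 10 were (median 1.55), while 7 of 12 pan-neuronal genes were lower (median -2.80) and 0 higher. Their part in the members' differences was not tested. Across the 12 libraries, which share sort and age, Cbx2 followed the mean S phase level most closely of the members (Pearson's r = 0.92) and the mean pan-neuronal level inversely (r = -0.92), while Bmi1 ran against S phase (r = -0.79). Rnf2 (r = 0.03) and Ring1 (r = 0.10) did not follow it.

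Among members, Ezh2 and Eed had the most alike profiles over the 12 libraries (Pearson's r of log2 FPKM + 1 = 0.97), ahead of Eed and Cbx2 (0.87) and of Ezh1 and Jarid2 (0.82). Bmi1 and Cbx2 were the most opposed (-0.84), followed by Ring1 and Rnf2 (-0.80). Among 10189 genes with a mean of 5 FPKM or more, the profiles most like a member, by r over the 12 libraries, were Trim59, Pcm1 and Hirip3 for Ezh2 (0.98 each) and Apitd1, Hirip3 and Ezh2 itself for Eed (0.98, 0.98 and 0.97). Bmi1 was most like Ptpro, Nlk and Cadm2 (0.99, 0.99 and 0.98), Cbx2 like Id3, Srsf9 and B3galnt2 (0.98 each) and Suz12 like Gemin8, Pcgf5 and Arhgef26 (0.97, 0.97 and 0.96). Ezh1 was most like Napa, Mxd1 and Impdh1 (0.97, 0.96 and 0.96) and Jarid2 like Htra1, Fyco1 and Pnpla7 (0.96, 0.96 and 0.95). Ring1 was most like Nphp4, Srprb and Brd7 (0.96, 0.96 and 0.95) and Cbx7 like Mbd1, Epb4.1 and Tmem259 (0.97, 0.95 and 0.95).

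Chromatin at the starts of the members was compared across stages in GFP+ cells, first from E12.5 to P0. Counts in the 10 kb around a start rose for 9 of the 11 starts, of 8 genes, beside 61.9% of all regions called and 29.9% called higher (edgeR quasi-likelihood test). Suz12 rose most, by 1.05 ± 0.15 on the log2 scale (adjusted p = 4.14e-08), from 37.8 ± 2.2 to 78.3 ± 0.9 CPM (counts scaled to the library total; mean ± SD, n = 2). Ezh2 followed at 0.81 ± 0.19, from 86.3 ± 2.7 to 151 ± 1.9 CPM. Bmi1 rose by 0.65 ± 0.19, the Jarid2 starts by 0.54 ± 0.18 (upstream) and 0.51 ± 0.18 (downstream), Cbx7 by 0.51 ± 0.13, Eed by 0.48 ± 0.17, Cbx2 by 0.44 ± 0.14 and Rnf2 by 0.43 ± 0.18. The Jarid2 regions share most of their windows and are not independent.

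Ezh1 did not pass (0.06 ± 0.16, adjusted p = 0.746), with 16.1 ± 0.13 CPM at E12.5 and 16.8 ± 0.32 CPM at P0, and neither did Ring1 (0.30 ± 0.17, adjusted p = 0.113). Without E12.5 replicate 2, 3 starts passed (Ezh2, Suz12 and Cbx7; 39.2% of regions called), without P0 replicate 1 6 (42.5%), without P0 replicate 2 6 (46.7%) and without E12.5 replicate 1 8 (51.9%). The differences themselves stayed similar over these 4 fits, such as 0.60 to 0.68 for Bmi1, 0.41 to 0.54 for Eed and 0.99 to 1.10 for Suz12. The median over the 11 starts was 0.51, against 0.0053 over all regions. Several other lists rose by a similar size. The median was 0.52 for regions of genes that oppose Polycomb, 0.54 for textbook Polycomb targets, 0.61 for G2/M genes and 0.39 for S phase genes. Other PRC2 and other PRC1 genes stood at 0.43 and 0.29. The rise was thus not particular to the members. Over exons 6 of 10 members rose (edgeR; 42% of genes called, 23% higher), with Suz12 again first (0.86), then Ring1 (0.66), Cbx2 (0.65), Bmi1 (0.62), Eed (0.54) and Jarid2 (0.46). Without P0 replicate 1, Suz12 alone passed over exons (14.9% of genes called), and without E12.5 replicate 2 Suz12, Bmi1 and Cbx2 did (23%). From E14 to E18, ages at which RNA was measured too, edgeR called 0 of 11 starts over 10 kb (7.78% of regions) and DESeq2 0 (6.41%). In edgeR 0 starts had an unadjusted p below 0.05, beside 15.7% of regions, with Suz12 at 0.29 ± 0.15. In the 2 kb around each start edgeR also called 0 (9.16% of regions). There 3 starts (Suz12 and both of Jarid2) were below 0.05 unadjusted, beside 16.9% of regions.

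Within the central 2 kb, where the signal of a start lies, every stage can be read library by library. Ezh2 stood at 95.0 CPM in the E10 library, 125 and 123 CPM at E12.5, 173 and 168 CPM at E14, 194 and 198 CPM at E16.5, 193 and 197 CPM at E18, 204 and 206 CPM at P0, and 157 and 102 CPM at P2. Suz12 stood at 53.9 CPM at E10, 52.9 and 58.2 CPM at E12.5, 78.0 and 84.2 CPM at E14, 83.5 and 79.4 CPM at E16.5, 98.0 and 105 CPM at E18, 108 and 109 CPM at P0, and 97.9 and 68.5 CPM at P2. Both were low at E10 and E12.5 and split between the P2 replicates. Ezh2 was high from E16.5 to P0, while Suz12 lay at one level at E14 and E16.5 and higher at E18 and P0. Ezh1 lay between 15.0 and 23.9 CPM in all libraries, highest at E10, and Bmi1 was also highest at E10 (142 CPM, against 69.7 to 122 CPM after it). In that single library a few windows of 200 bp stood high, such as the one centred 700 bp into Bmi1 (26.2 CPM, against 3.99 to 7.002 CPM at other stages). The window just before the start of Bmi1 was lowest at E10 (3.08 CPM, against 6.74 to 12.1 CPM). Over 10 kb Bmi1 was not highest at E10, with 103 CPM against a mean of 157 CPM at P0. Over all regions the central 2 kb held 43.2% of the 10 kb counts at E10 and 56.0% to 70.1% in the other libraries. The part of this in the E10 values was not tested. From E12.5 to P0 in this width 8 of 11 starts rose (edgeR; 51.5% of regions called, 26.8% higher), with Ring1 now among them (0.45, adjusted p = 0.0070) and Eed (adjusted p = 0.0528) and Rnf2 (adjusted p = 0.0687) not.

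**Figure D4:**
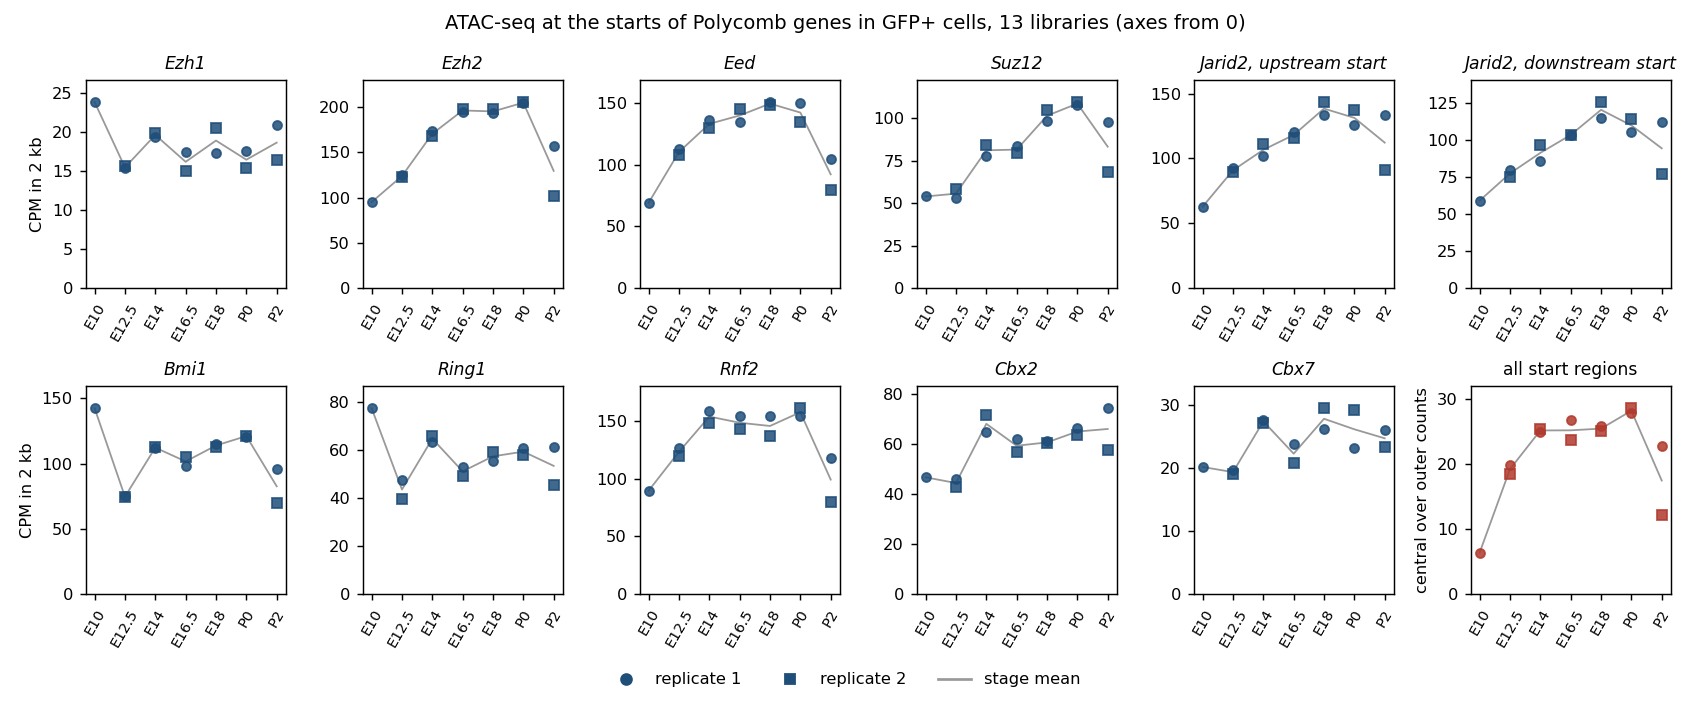
CPM in the 2 kb around each member's start (vertical axes, from 0) by stage in 13 GFP+ libraries, with replicates as circles and squares and a line through stage means. The last panel gives, over all regions, counts in the centre over counts at the outer edges: it runs from 6.4 at E10 to 28.6 at P0, and P2 replicate 2 stands at 12.2.

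Marker regions of cell types moved over E12.5 to P0 as well, in both directions. Of 10 lens regions 8 were called lower and 0 higher (median -1.06), as were 5 of 6 microglia regions (median -1.36) and 6 of 9 erythroid regions (median -0.99). Of 18 pan-neuronal regions 10 were lower and 1 higher (median -0.39). Of 15 progenitor regions 12 were higher and 0 lower (median 0.82), as were 12 of 16 amacrine and horizontal regions (median 0.535). Of 14 photoreceptor regions 6 were higher and 3 lower (median 0.37). Their part in the members' differences was not tested.

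The contrast of the libraries moved with stage in the same way. Over all start regions, counts in the central pair of windows stood 19.9 and 18.5 times above those at the edges at E12.5 and 27.8 and 28.6 times at P0, while this ratio was 6.40 for E10, 22.7 and 12.2 for the P2 replicates, and between 23.7 and 26.7 for E14, E16.5 and E18. Its part in the rise at the members' starts was not tested. Along stage rank over all 7 stages, 1 start passed (edgeR; 10.1% of regions called and 5.2% higher, 5 starts at an unadjusted p below 0.05 beside 35.3% of regions): Suz12 rose by 0.17 ± 0.04 per stage (adjusted p = 0.0179). Without P2 replicate 2, 7 starts passed (60.9% of regions), among them Ezh2 (0.18) and both Jarid2 starts (0.17 and 0.16). Without E10 (12% of regions called), or without E12.5 replicate 1 (5.08%) or replicate 2 (4.92%), no start passed.

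Away from the start itself, windows of 200 bp showed further signal in some regions, which were picked after their values were seen. Such windows held at least 10% of the highest window and lay more than 1000 bp from the start. On mm9, Cbx7 had further signal in an intron at chr15:79758076-79758275, 4900 bp into the gene, at 4.75 CPM or 82.4% of the maximum at its start (means of 13 libraries). This is the outermost window of the region, so where that signal peaks was not measured here. Jarid2 had a maximum in an intron at chr13:44828943-44829142, 2900 bp from its upstream start, at 34.5% of the maximum there. The region of Bmi1 also held the start of Commd3, 4556 bp upstream on the same strand, with a maximum at 88.4% of that of Bmi1. In the region of Ring1 the highest window lay by the start of H2-Ke6, 3375 bp upstream, so that the 10 kb counts of Bmi1 and Ring1 include a neighbour. Mir219c and Mir219a-1 start 332 and 412 bp upstream of Ring1. Counts in the central 2 kb of Ring1, the width in which it passed from E12.5 to P0, therefore include neighbouring starts too. Ezh2, Eed, Suz12, Rnf2 and Cbx2 had a single maximum, by the start.

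**Figure D5:**
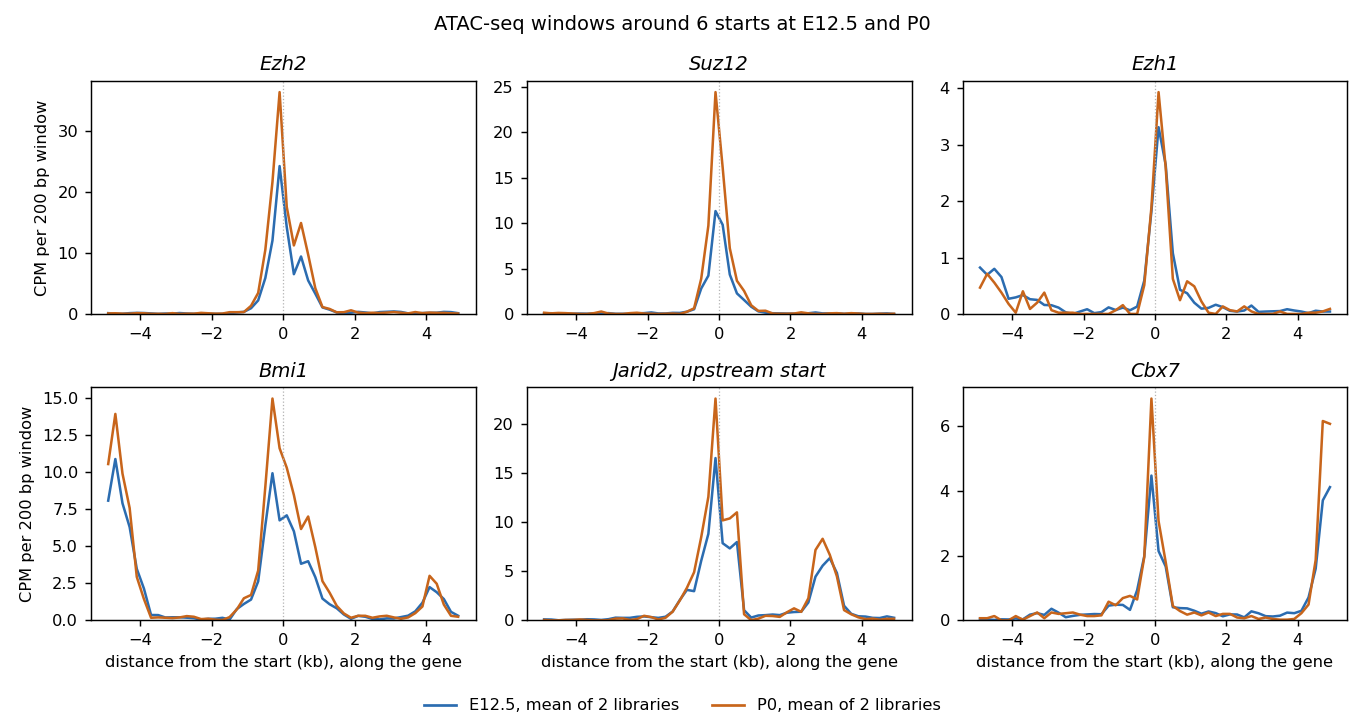
Mean CPM in 200 bp windows (vertical axes, from 0, own scale) by distance from the start in kb along the gene, for 6 starts at E12.5 (blue) and P0 (orange), means of 2 libraries. The curves part at the start for Ezh2 and Suz12 and lie on each other for Ezh1, while Bmi1, Jarid2 and Cbx7 show further signal away from the start, that of Cbx7 at the edge of its region.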

How the data were processed

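Retina sorted by GFP gave 12 RNA-seq and 13 ATAC-seq libraries, grouped by the labels. The authors deposited a table of normalized RNA values, taken to be FPKM from the values, and raw ATAC-seq counts on mm9 over exons and in windows of 200 bp around transcript starts. The labels give polyA RNA, while their protocol names a total RNA kit. Per the submitters' processing notes, Bowtie2, HISAT2, Picard 2.10.7, SAMtools 1.5, featureCounts 1.5.3 and bedtools 2.26.0 were used with mm9 and mm10; for the first pair of tools no version was found in these sources, and the program behind the FPKM is not given in the sources used here. The depth of the RNA libraries is unknown.

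Genes that reached 1 FPKM in 2 or more libraries were tested with limma 3.58.1 (trend) on log2(FPKM + 1), which understates fold changes of low genes, with all 12 libraries and 6 groups in 1 fit (6 residual degrees of freedom). The pseudocount shrinks Cbx7 most among the members. Sort differences over ages are the mean of the 3 ages, GFP+ minus GFP-. Counts were summed over runs of 50 windows to regions of 10 kb (7998 windows outside such runs were left out) and tested with edgeR 4.0.16 (quasi-likelihood, TMM) over 27902 regions and 22097 genes. The ATAC-seq SE is the fold change over the square root of F. CPM over exons, 10 kb and the central 2 kb were each scaled to their own library total with TMM factors. CPM of single windows were scaled to the total of the start regions without these factors. These scales differ, and CPM of unlike widths cannot be set side by side. All adjusted p-values are Benjamini-Hochberg values over every feature tested, with a threshold of 0.05. DESeq2 1.42.0 was an alternative for counts. Paralog ratios were tested by exact permutation of the sort within ages. Tests were run under R 4.3.3 and Python 3.11.15 (scipy 1.17.1) and tried first on simulated data.

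The members and gene lists were chosen with earlier results of these data known. The text names all 10 members, up to 4 genes of each other list with the smallest p and the 3 most alike genes of each member except Rnf2, for which they are not reported here; Kdm6b, Cdkn2a and the gene pairs were chosen after their values were seen. Replicate numbers did not pair the RNA libraries: deviations from group means correlated between sorts by 0.36 at E14, 0.11 at E18 and -0.56 at P2. Alternatives were other pseudocounts, filters, scalings, widths and tools, the replicate number as a block, and leaving out libraries. Sequences came from RefSeq on GRCm38.p6, whose coordinates differ from those of mm9.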

Additional observations from a re-analysis of the deposited data

How the results depend on the processing

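Depth of the RNA libraries is unknown, and 2 libraries a group limit each comparison. Single-member values were recomputed under every alternative, and those of members and contrasts whose value the text gives were counted. Of these, 372 of the RNA values and 213 of the ATAC-seq values kept direction and side of the threshold. The call was lost in 38 and 27 and gained in 33 and 6, and 10 RNA values changed sign. Those were Bmi1 at E14 and, over ages, Ring1, Rnf2 and Cbx7. Over ages, Ring1 stood at -0.060 and Rnf2 at -0.038 after rescaling without histone, mitochondrial and Malat1 values, Ring1 at -0.079 without the E14 libraries, and Cbx7 at 0.10 with quantile scaling. Leaving out 1 library moved Ring1 between -0.060 and 0.077, Rnf2 between -0.025 and 0.093, and Bmi1 at E14 between -0.96 and 0.015.

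Counts of genes called moved as follows. Without the E14 libraries limma called 7089 genes (5 members) by sort at E18, 4712 (5) at P2 and 8105 over ages, and from E18 to P2 4921 (3) in GFP+ cells, 5953 (7) in GFP- cells and 421 for the difference between sorts. With the replicate block it called 269 genes at E18, 129 at P2 and 92 from E14 to P2 in GFP+ cells. The block also gave 2 members from E18 to P2 in GFP- cells (10.7% of genes) and 1 gene for the difference between sorts. At P2 with crossed numbers, chosen after seeing the data, limma called 195 genes. Without the filter it called 9 genes at E14, 970 at E18 and 104 for the difference between sorts. From E18 to P2 in GFP- cells it then called 0 members (9.64% of genes). A pseudocount of 0.1 gave 143 genes at E18, 1 gene for the difference between sorts and 0 members in GFP- cells (9.81% of genes). Quantile scaling gave 944 genes and 1 member at E18 (6.61% of genes) and, from E18 to P2, 2 members in GFP- cells (14.4%). Rescaling gave 1155 genes and 1 member at E18 (8.08%), and 357 genes at P2. It also gave 1 member from E18 to P2 in GFP+ cells (9.1%). By stage rank, DESeq2 called 3 starts (15% of regions called) and edgeR without E10 called 0 (12%). The causes were not tested.

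Leaving out 1 library at a time gave, by sort, 0 to 6844 genes (0 to 5 members) at E14, 9 to 28 (0) at E18, 29 to 114 (0) at P2 and 1308 to 8808 (2 to 7) over ages. By age it gave 15 to 470 genes from E14 to P2 and 351 to 404 from E18 to P2 in GFP+ cells, 412 to 962 in GFP- cells and 1 to 4 for the difference between sorts, each with 0 members. In ATAC-seq it gave 3286 to 7285 genes over exons (1 to 6 members), 10930 to 14480 start regions from E12.5 to P0 (3 to 8), 1111 to 1248 from E14 to E18 (0) and 1371 to 16982 by stage rank (0 to 7). The Ezh2 to Ezh1 ratio moved between 1.16 and 1.63, Cbx2 to Cbx7 between 0.65 and 1.32 and Rnf2 to Ring1 between -0.10 and 0.15 (1.41 and 1.02 for the first pair of ratios without the E14 libraries).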
